A study of Homo sapiens with 12 samples.

Results

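The genes described are 10 transcripts of the circadian clock: NR1D1, NR1D2, PER1, PER2, PER3, CRY1, CRY2, DBP, ARNTL and BHLHE40. They were chosen by name, as NR1D1 and its partners in the clock, from the 57500 genes of a count table, with the response of these libraries to PACT depletion known. Each symbol stood on 1 Ensembl ID, and all 10 were among the 27029 genes that passed the filter on low counts. Since that response took part in the choice, the depleted and control levels of the 10 genes are given as a description, without p-values. How many of them are past the threshold is given once, beside the share over all genes, and supports nothing. Total RNA was sequenced from HCC1806 and MDA-MB-468, established cell lines of triple-negative breast cancer, a class of tumour with neither hormone receptors nor amplified HER2. PACT, the double-stranded RNA binding protein encoded by PRKRA, was targeted by the CRISPR-Cas9 guide sgPACT-2 in both lines. The controls carried the guide sgC1 in HCC1806 and sgNTA in MDA-MB-468. Each of the 4 groups had 3 libraries. Whether these came from separate cultures, whether the edited cells were clones, when they were harvested and whether they were synchronised is not given in the sources used here. P-values therefore measure only the spread between these libraries, which may be technical. A gene is called past the threshold when its adjusted p-value is under 0.05 in edgeR's quasi-likelihood test, by Benjamini-Hochberg over the tested genes.

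The circadian clock of mammalian cells is a loop of transcription and repression that runs in most tissues and in many cultured cells. ARNTL (also named BMAL1) pairs with CLOCK, binds E-boxes and switches on the PER and CRY genes, whose proteins return to the nucleus and shut the pair off. The same pair switches on NR1D1 and NR1D2, nuclear receptors (REV-ERB alpha and beta) that repress ARNTL through RORE elements. DBP is an E-box target that activates genes through D-boxes, and BHLHE40 (DEC1) is an E-box repressor.

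Promoter sequences show which of these elements stand next to the start sites of the genes whose levels are described first. The RefSeq table (GRCh38.p14) matched 10 of 10 genes, in 14 start sites, and the 250 bases before each start were searched on both strands. The motifs were the E-box CACGTG, the related E-prime-box CACGTT, the D-box as TTATGTAA or TTACGTAA, the RORE core as TAGGTCA or TGGGTCA, and the CRE TGACGTCA, to which cAMP-responsive and stress-responsive bZIP factors bind. None of these words holds another. The sequences run 5′ to 3′ on the strand of the gene, and capitals mark motif matches. Shown is the longest stretch of a window outside bases that GENCODE 29 annotates as exon. For ARNTL this is 122 of the 250 bases, although only 29 are annotated as exon.
NR1D1, chr17:40100726-40100839, minus strand: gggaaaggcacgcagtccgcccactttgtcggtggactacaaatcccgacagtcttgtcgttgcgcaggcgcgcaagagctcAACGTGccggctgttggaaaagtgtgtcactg
NR1D2, chr3:23945871-23946120, plus strand: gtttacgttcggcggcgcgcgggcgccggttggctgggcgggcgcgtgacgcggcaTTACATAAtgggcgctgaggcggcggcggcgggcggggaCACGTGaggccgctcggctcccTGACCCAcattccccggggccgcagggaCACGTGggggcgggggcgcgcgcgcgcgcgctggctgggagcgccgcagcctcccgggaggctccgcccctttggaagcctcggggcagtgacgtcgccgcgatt
PER1, chr17:8152436-8152654, minus strand: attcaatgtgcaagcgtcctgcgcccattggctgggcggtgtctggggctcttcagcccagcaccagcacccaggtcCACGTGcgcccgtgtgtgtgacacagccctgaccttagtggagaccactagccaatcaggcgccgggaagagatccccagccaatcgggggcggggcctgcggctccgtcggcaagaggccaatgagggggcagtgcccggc
ARNTL, chr11:13277668-13277789, plus strand: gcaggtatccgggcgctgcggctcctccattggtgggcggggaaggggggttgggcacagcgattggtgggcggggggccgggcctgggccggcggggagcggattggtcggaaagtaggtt
The NR1D1 promoter held an E-prime-box that began 168 bases before the start site. NR1D2 held 2 E-boxes, at 155 and 105 bases, a D-box at 194 and a RORE core at 133. PER1 held an E-box at 173 bases, and no searched motif was found in the ARNTL windows. Other spellings of the elements, and sites outside the 250 bases, were not searched. An E-box was also present 245 bases before the start of BHLHE40, inside an annotated exon, which made 3 of the 10 genes, against 6.34% of all 35116 promoter windows of this length. The E-prime-box was found in 4 genes (NR1D1, PER2, CRY1 and CRY2), against 4.55% of windows. The D-box was found in 2 (NR1D2 and PER3), against 0.94%, and the RORE core in 2 (NR1D2 and CRY2), against 4.82%. The CRE was found in 0 of the 10, against 1.65%. A gene was counted when any of its start sites held the motif, and the 10 genes had 14 start sites. The shares are of single windows, so the 2 measures are not alike. These matches are letters in a window, and no binding was measured.

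The libraries held between 18640633 and 24704877 counts in HCC1806 and between 34581754 and 44790741 in MDA-MB-468. The 10 genes were well covered, from 123 counts (ARNTL) to 8753 counts (BHLHE40) in a library. Epithelial markers were present throughout, with EPCAM at 108 to 232 CPM and KRT8 at 276 to 1380 CPM, where CPM is the count scaled to library size by TMM. The summed level of 5 markers was lower in depleted HCC1806, 1840 to 2260 CPM in controls and 1250 to 1580 CPM after depletion. Of the 5, 3 passed the edgeR threshold, where 2.49% of all genes did. They were EPCAM (log2 fold change -0.55, edgeR adjusted p-value 0.0335), KRT5 (-0.92, 0.0106) and CDH1 (-0.38, 0.0373). KRT8 (-0.36, 0.237) and KRT18 (-0.06, 0.946) did not pass and overlapped between the groups. The marker calls were not repeated with other settings. In MDA-MB-468 the sum was 3290 to 3540 CPM in controls and 2950 to 3590 CPM after depletion, with log2 fold changes between -0.13 and -0.05 that did not pass. The part of this in the differences of the clock genes was not tested. PGR, the progesterone receptor, reached at most 0.3 CPM, and ESR1, the estrogen receptor, ranged from 6.27 to 24.2 CPM. ERBB2, the gene of HER2, lay above both: it measured 181 to 209 CPM in HCC1806 controls and 142 to 162 CPM after depletion. In MDA-MB-468 ERBB2 measured 136 to 145 CPM in controls and 124 to 132 CPM after depletion. Its log2 fold changes of -0.33 (SE 0.09) and -0.12 (SE 0.09) did not pass the threshold. The summed level of 4 markers of leukocytes, endothelium and fibroblasts was 1.6 to 4.94 CPM in the 12 libraries. PRKRA fell in HCC1806 (78.6, 82.6 and 72.1 CPM in controls, 37.5, 36.1 and 37.3 after depletion) but overlapped in MDA-MB-468 (41.1, 45.9 and 46.9 against 39.2, 35.5 and 41.6), so that for MDA-MB-468 depletion rests on the labels. Depleted replicate 1 of HCC1806, the library with the fewest counts, stood apart: without it 1792 genes passed the threshold in that line, against 672 with it.

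NR1D1 (ENSG00000126368, GRCh38 chromosome 17, 40092787 to 40100725, minus strand) was higher after PACT depletion in both lines. In HCC1806 it measured 29, 37.2 and 32.1 CPM in control replicates 1 to 3 and 56.1, 86.9 and 113 CPM in depleted replicates 1 to 3. In MDA-MB-468 the same values were 15.4, 13.9 and 15.5 CPM in controls and 44.9, 36.1 and 41.5 CPM after depletion. Every depleted library was above every control of its line, and the depleted libraries of HCC1806 were spread more widely than those of MDA-MB-468. The means were 32.7 ± 4.11 and 85.5 ± 28.7 CPM in HCC1806 and 14.9 ± 0.88 and 40.8 ± 4.44 CPM in MDA-MB-468 (SD, n = 3 each). The model gave log2 fold changes of 1.39 (SE 0.18) in HCC1806 and 1.45 (SE 0.19) in the other line, which are 2.61-fold and 2.73-fold. Against the mean of the controls, single depleted libraries stood 1.71-fold, 2.65-fold and 3.46-fold higher in HCC1806 and 3.0-fold, 2.41-fold and 2.77-fold higher in MDA-MB-468. Because RNA was taken from whole cultures, a change in a share of the cells and a change in RNA per cell cannot be told apart.

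NR1D1 overlaps THRA, the thyroid hormone receptor alpha gene on the other strand, over 263 exonic bases, and whether reads were counted by strand is not given in the sources used here. THRA itself measured 27.1 ± 2.17 and 28 ± 2.43 CPM in control and depleted HCC1806 and 17.4 ± 0.646 and 16.7 ± 1.53 CPM in MDA-MB-468 (SD, n = 3 each). Its log2 fold changes of 0.05 (SE 0.12) and -0.06 (SE 0.12) did not pass the threshold (edgeR adjusted p-values 0.926 and 1). The level of NR1D1 relative to THRA, per exon length and within a library, was therefore 2.94, 3.21 and 2.93 in HCC1806 controls and 5.58, 7.63 and 9.49 after depletion. In MDA-MB-468 it was 2.14, 2.02 and 2.32 in controls and 6.1, 5.71 and 6.6 after depletion.

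NR1D2 (ENSG00000174738, chromosome 3, 23945260 to 23980618), the other REV-ERB receptor, differed less. Its HCC1806 controls measured 48.1, 72.1 and 43.4 CPM and the depleted libraries 49.2, 73.2 and 104 CPM, so that the groups overlapped (log2 fold change 0.47, SE 0.21). In MDA-MB-468 it measured 68.3, 68.4 and 70.3 CPM in controls and 79.1, 81.4 and 86.2 CPM after depletion, with no overlap (0.25, SE 0.20). The ratio of NR1D1 to NR1D2 within a library, per exon length, showed the unequal change: it was 1.27, 1.08 and 1.55 in HCC1806 controls and 2.39, 2.49 and 2.29 after depletion. In MDA-MB-468 it went from 0.474, 0.428 and 0.463 to 1.19, 0.93 and 1.01. NR1D2 was thus the more abundant REV-ERB transcript per length in MDA-MB-468 controls, while NR1D1 was in HCC1806 controls. In depleted MDA-MB-468 NR1D1 was above NR1D2 in 2 of 3 libraries.

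Of the 3 period genes, whose proteins carry the negative arm of the loop, PER1 differed most. PER1 (ENSG00000179094, chromosome 17, 8140472 to 8156506, minus strand) measured 113, 176 and 139 CPM in HCC1806 controls and 159, 263 and 279 CPM after depletion. In MDA-MB-468 it measured 20.0, 16.0 and 13.2 CPM in controls and 29, 25.9 and 25.7 CPM after depletion. The log2 fold changes were 0.71 (SE 0.19) and 0.72 (SE 0.20), or 1.64-fold in each line. The groups overlapped in HCC1806, where depleted replicate 1 lay below control replicate 2, and did not overlap in MDA-MB-468. PER2 (ENSG00000132326, chromosome 2, 238244038 to 238290102, minus strand) measured 26.2, 43.4 and 32.6 CPM in HCC1806 controls and 33.6, 47.4 and 51.2 CPM after depletion (0.37, SE 0.17). In MDA-MB-468 the values of PER2 were 34.8, 30.8 and 30.5 CPM and 43.0, 36.7 and 40.7 CPM (0.32, SE 0.17), with no overlap. PER3 (ENSG00000049246, chromosome 1, 7784320 to 7845177) went the other way on average in HCC1806, with 41.5, 72.2 and 53.1 CPM in controls and 24.7, 57.6 and 68.8 CPM after depletion (-0.14, SE 0.25). That sign came from 1 library at a time: it was 0.18 without depleted replicate 1 and 0.10 without control replicate 2. In MDA-MB-468 PER3 measured 73.0, 69.6 and 64.2 CPM in controls and 79.0, 74.5 and 73.3 CPM after depletion (0.13, SE 0.25), groups that touched without overlapping.

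CRY1 and CRY2 encode the cryptochromes, the direct inhibitors of the ARNTL and CLOCK pair. CRY1 (ENSG00000008405, chromosome 12, 106991364 to 107093829, minus strand) measured 21.3, 17.8 and 14.0 CPM in HCC1806 controls and 24.8, 23.4 and 21.6 CPM after depletion (0.39, SE 0.14). In MDA-MB-468 it measured 17.0, 17.8 and 18.5 CPM in controls and 22.5, 21.1 and 21.1 CPM after depletion (0.28, SE 0.14). CRY1 did not overlap between the groups in either line, and the differences were small. CRY2 (ENSG00000121671, chromosome 11, 45847118 to 45883248) measured 29.6, 35.9 and 30.0 CPM and then 33.2, 39.4 and 41.6 CPM in HCC1806, with overlap (0.26, SE 0.12). In MDA-MB-468 CRY2 measured 24.5, 22.2 and 22.1 CPM and then 28.6, 26.0 and 26.5 CPM, without overlap (0.24, SE 0.12).

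ARNTL (ENSG00000133794, chromosome 11, 13276652 to 13387266), the activator of the loop and a target of REV-ERB repression, was higher after depletion in HCC1806. There it measured 8.01, 5.51 and 8.56 CPM in controls and 17.8, 14.2 and 20.6 CPM after depletion, with every depleted library above every control. The log2 fold change was 1.25 (SE 0.17), or 2.39-fold. In MDA-MB-468 ARNTL measured 22.1, 25.8 and 23.4 CPM in controls and 26.5, 24.8 and 25.7 CPM after depletion, and the groups overlapped (0.11, SE 0.15). The depleted HCC1806 libraries (17.5 ± 3.22 CPM, SD, n = 3) lay below the mean of the MDA-MB-468 controls (23.7 ± 1.86 CPM, SD, n = 3). Relative to CLOCK, its partner, the ARNTL level per exon length was 0.226, 0.19 and 0.301 in HCC1806 controls and 0.529, 0.461 and 0.692 after depletion. In MDA-MB-468 the ratio was 0.296, 0.367 and 0.318 in controls and 0.376, 0.364 and 0.333 after depletion. NR1D1 and ARNTL, repressor and target in the textbook loop, were thus both higher in depleted HCC1806.

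BHLHE40 (ENSG00000134107, chromosome 3, 4979116 to 4985323) measured 60.8, 59.9 and 70.6 CPM in HCC1806 controls and 73.2, 76.7 and 101 CPM after depletion, without overlap (0.39, SE 0.15). In MDA-MB-468 it measured 225, 168 and 218 CPM in controls and 233, 165 and 218 CPM after depletion (0.01, SE 0.15), and in both groups replicate 2 was the lowest. DBP (ENSG00000105516, chromosome 19, 48630030 to 48637438, minus strand) overlapped in both lines. It measured 29.8, 64.1 and 41.0 CPM in HCC1806 controls and 15.1, 51.8 and 53.6 CPM after depletion (-0.16, SE 0.32). As with PER3, the sign turned with 1 library: the log2 fold change of DBP was 0.23 without depleted replicate 1 and 0.19 without control replicate 2. In MDA-MB-468 DBP measured 24.3, 24.2 and 23.1 CPM in controls and 32.5, 23.8 and 25.9 CPM after depletion (0.20, SE 0.33). DBP shares 661 exonic bases with SPHK2 on the other strand, and PER3 shares 868 with UTS2, so that reads of these neighbours may be included. The neighbours differed in level. SPHK2 averaged 22.2 and 24 CPM in control and depleted HCC1806 and 20.8 and 19.2 CPM in MDA-MB-468, while UTS2 averaged at most 0.247 CPM in a group.

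**Figure D1:**
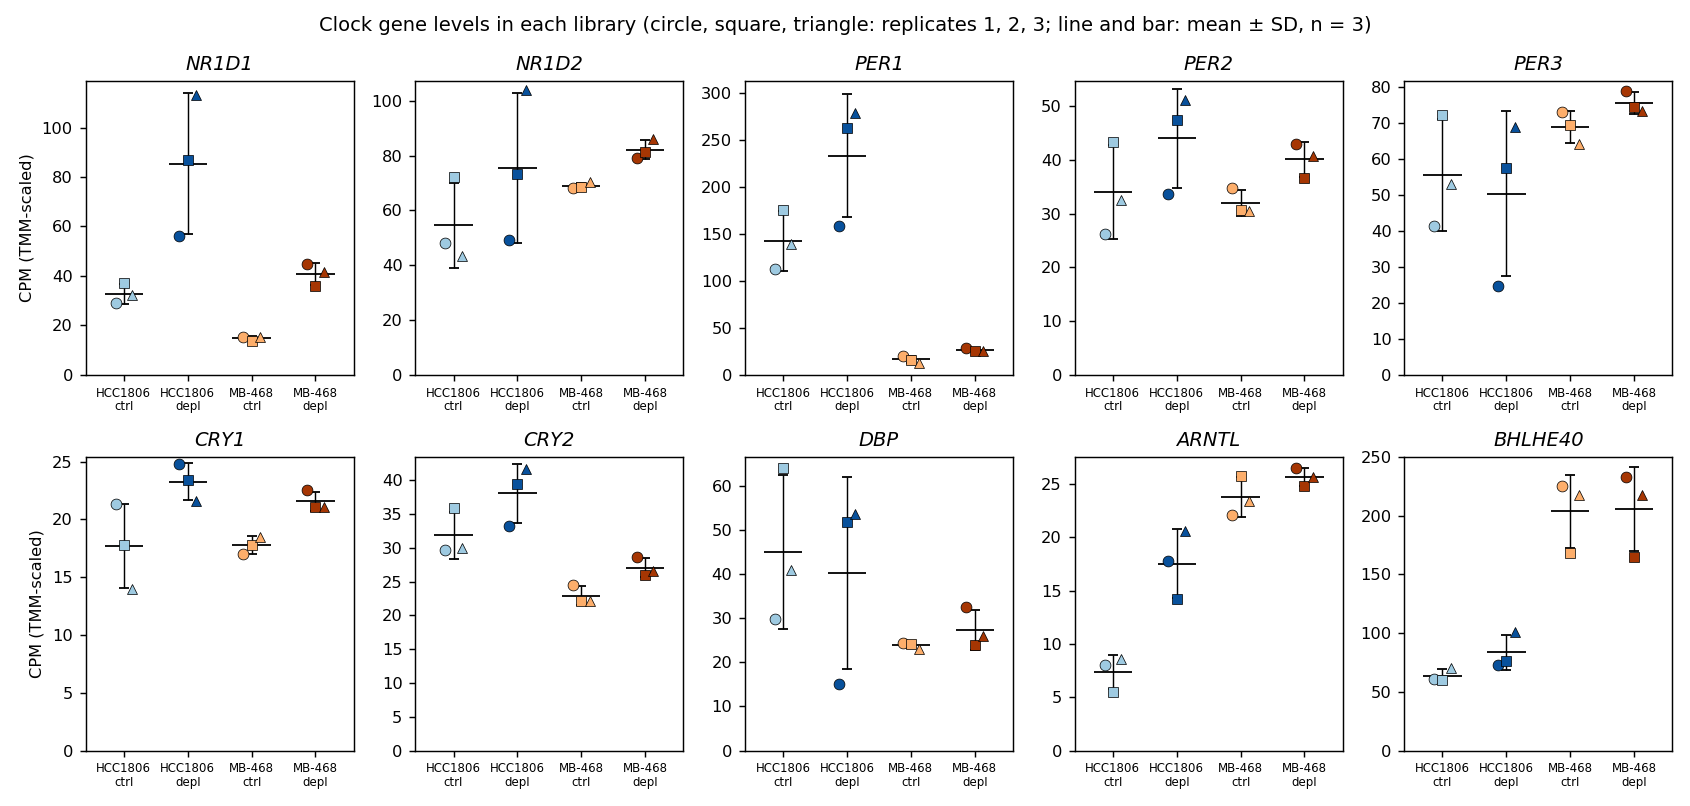
Each panel plots 1 clock gene in CPM (TMM-scaled, axis from 0) for the 4 groups, with 3 libraries as points and the mean ± SD as line and bar. The depleted libraries of NR1D1 lie above the controls in both lines (56.1 to 113 CPM against 29 to 37.2 in HCC1806, 36.1 to 44.9 against 13.9 to 15.5 in MDA-MB-468), while those of ARNTL do so in HCC1806.

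In HCC1806 2 of the 10 genes were past the threshold, NR1D1 and ARNTL, both higher, where 2.49% of all tested genes were past it in either direction. In MDA-MB-468 1 of the 10 was past it, NR1D1, where the share of all genes was 0.17%. With the replicate number as a block, 6 of the 10 were past it in HCC1806: NR1D1, PER1, PER2, CRY1, ARNTL and BHLHE40. In that fit 1947 of the 27029 tested genes were. As the depletion results took part in choosing the genes, nothing is read from these counts. The median log2 fold change of the 10 genes was 0.39 in HCC1806 (8 positive and 2 negative, from -0.16 to 1.39) and 0.25 in MDA-MB-468 (10 positive, from 0.01 to 1.45). Over all genes tested the medians were 0.01 and -0.01. The 3 depleted libraries lay above the 3 controls without overlap for 4 genes in HCC1806 (NR1D1, CRY1, ARNTL and BHLHE40), where 8.51% of all genes did. In MDA-MB-468 they did for 7 genes, all but DBP, ARNTL and BHLHE40, where 6.2% of all genes did. Without HCC1806 depleted replicate 1, 5 of the 10 were past the threshold in HCC1806, where 1792 of all genes were. In the other line 2 of the 10 were, where 98 of all genes were. With MDA-MB-468 fitted alone, 4 were past it there (NR1D1, NR1D2, PER1 and PER2), where 323 of all genes were.

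The difference between the lines, taken as the MDA-MB-468 change minus the HCC1806 change, put 0 of the 10 genes past the threshold, where 0.122% of all genes were. At an unadjusted p-value under 0.05 there was 1, ARNTL, where 2269 of the 27029 tested genes were. DESeq2 put 1 past the adjusted threshold, again ARNTL, where 177 of all genes were. With the block 1 was, ARNTL as well, where 271 of all genes were. These counts too rest on the values that led to the choice and support nothing. The difference was -1.14 (SE 0.23) for ARNTL. For NR1D1 the difference was 0.06 (SE 0.26) and for PER1 0.00. That of BHLHE40 was -0.38 (SE 0.21), and the others lay between -0.22 and 0.35.

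**Figure D2:**
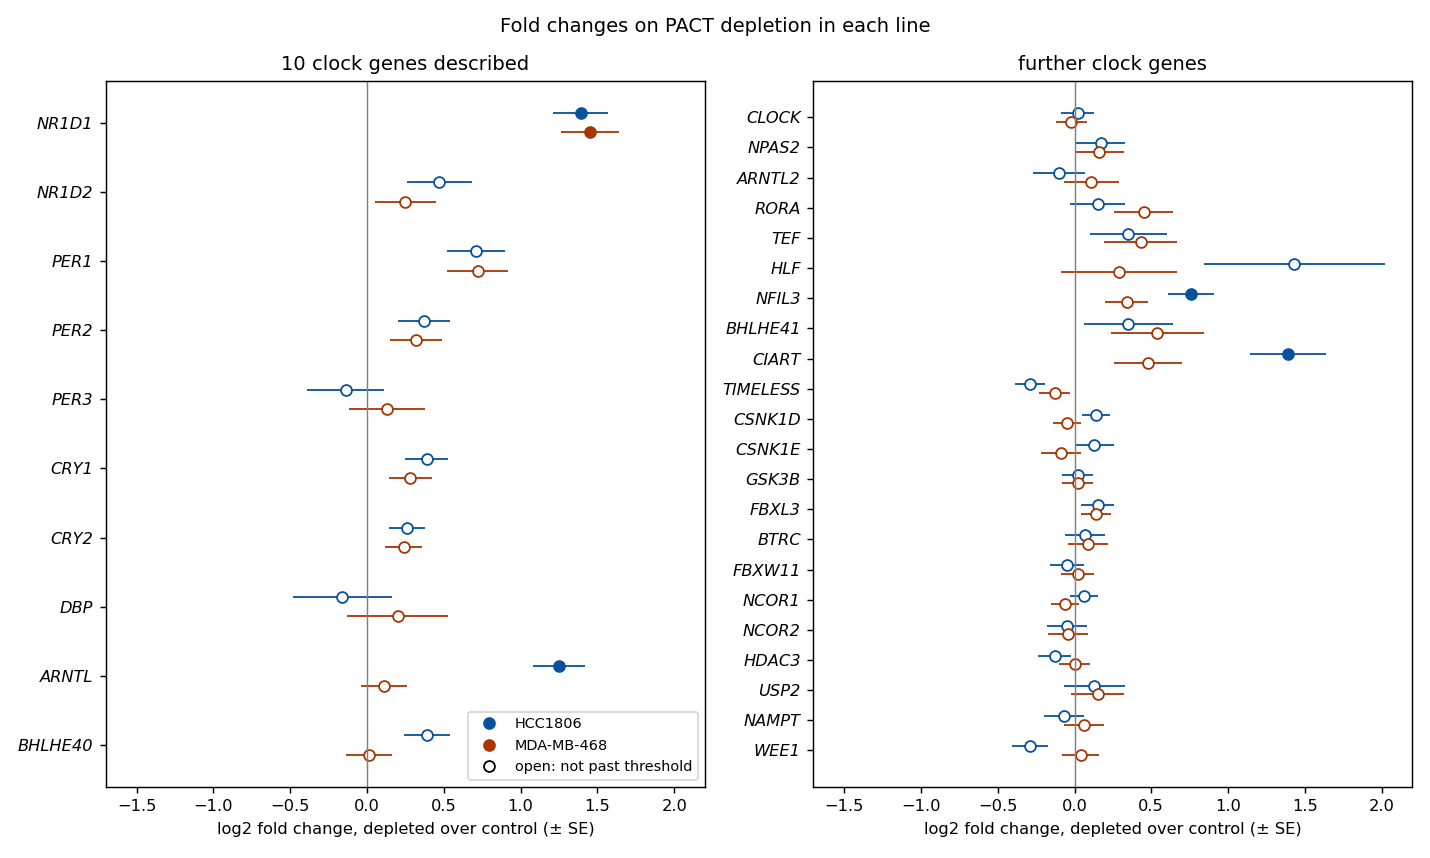
Points are log2 fold changes of depleted over control libraries with their SE, for the 10 clock genes described (left) and further clock genes (right), in HCC1806 (blue) and MDA-MB-468 (orange), filled where past the threshold. NR1D1 is filled in both lines (1.39 and 1.45), and ARNTL, NFIL3 and CIART are filled in HCC1806. Genes with at most 3 counts in each control library of a line are not plotted.

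The replicates of HCC1806 were less even in these genes than those of MDA-MB-468. The coefficient of variation (SD over mean) had a median of 22.3% over the 10 genes in HCC1806 controls, against 11.8% over genes averaging 50 counts or more, and 24.5% against 14.3% in the depleted libraries. In both groups 8 of the 10 genes lay above the median of all genes. In MDA-MB-468 the 10 genes had medians of 6.15% in controls and 6.01% after depletion, against 6.64% and 8.98% over all genes. The order of the libraries recurred across the 10 genes. Control replicate 2 was the highest of the 3 controls for 7 of the 10 genes, as it was for 28.6% of all genes. Among the depleted libraries, replicate 3 was the highest for 9 of the 10 genes (33.3% of all genes) and replicate 1 the lowest for 8 (36.9%). In MDA-MB-468 depleted replicate 1 was the highest for 9 of the 10 (45.4%). The part of harvest time, depth or culture state in this order was not tested.

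**Figure D3:**
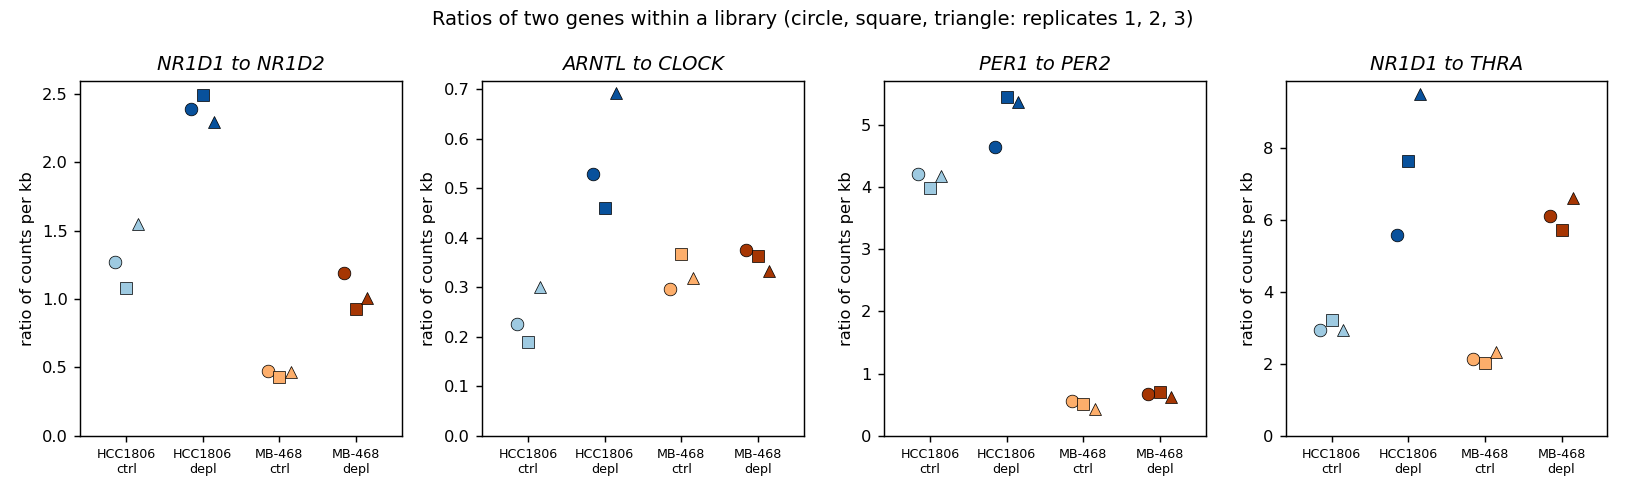
Ratios of 2 genes' counts per kb of exon within 1 library, on an axis from 0, for each of 12 libraries. NR1D1 stands higher relative to NR1D2 and to its overlapping neighbour THRA in the depleted libraries of both lines, ARNTL stands higher relative to CLOCK in depleted HCC1806 (0.461 to 0.692 against 0.19 to 0.301), and PER1 exceeds PER2 in HCC1806 and not in MDA-MB-468.

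The control libraries of the lines differed in the levels of some of the 10 genes, in a comparison that does not involve PACT. Line and control guide cannot be told apart here, since sgC1 was used in one line and sgNTA in the other. In controls PER1 was far lower in MDA-MB-468 than in HCC1806 (16.4 ± 3.44 against 143 ± 32.1 CPM, SD, n = 3 each), a log2 difference of -3.12 (SE 0.21, edgeR adjusted p-value 4.39e-10). NR1D1 was lower by a log2 difference of -1.13 (SE 0.19, edgeR adjusted p-value 3.6e-05), CRY2 by -0.47 (SE 0.12, 0.00156) and DBP by -0.91 (SE 0.33, 0.0182). Of these DBP lost the threshold without HCC1806 control replicate 2, where its difference was -0.54 (edgeR adjusted p-value 0.158), and with DESeq2 (0.0539). ARNTL was higher in MDA-MB-468, with a log2 difference of 1.69 (SE 0.17, edgeR adjusted p-value 5.99e-08), and so was BHLHE40, with 1.68 (SE 0.15, 2.53e-08). NR1D2 (0.34, edgeR adjusted p-value 0.142), PER2 (-0.09, 0.646), PER3 (0.31, 0.269) and CRY1 (0.00, 0.987) did not pass. With a filter at a mean of 50 counts, which moved the median of all genes by -0.31, CRY1 (-0.31, 0.0379) and PER2 (-0.40, 0.0494) passed. In the main fit 6 of the 10 genes passed, 2 higher and 4 lower, where 74.2% of all genes did. Most genes differed between the lines, so this count is not particular to the clock. The median over all genes was -0.26, so that the lower values of MDA-MB-468 are best read against it.

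Per kb of exon, the order of the 10 genes differed between the lines. Exon length here is the union of all annotated exons of a gene, which can exceed the length of its RNA (6.54 kb for DBP). The order of genes within a line depends on that length and is approximate, while the level of 1 gene between groups does not. In HCC1806 controls PER1 had the highest level (20.4 ± 4.58 CPM per kb, SD, n = 3), followed by BHLHE40 (16.6 ± 1.54), NR1D1 (11.8 ± 1.48) and NR1D2 (9.37 ± 2.64). DBP, PER3, CRY2, PER2 and CRY1 followed with means from 6.87 down to 3.5, and ARNTL was the lowest at 1.09 ± 0.242. The only neighbours in this order whose libraries did not overlap were BHLHE40 over NR1D1 and CRY1 over ARNTL. In MDA-MB-468 controls BHLHE40 led with 53.1 ± 8.16 CPM per kb, followed by NR1D2 (11.9 ± 0.196), PER3 (8.51 ± 0.547), NR1D1 (5.39 ± 0.317) and PER2 (4.66 ± 0.349). CRY2, DBP, ARNTL and CRY1 lay between 3.7 and 3.51 and overlapped one another in this order, and PER1 was the lowest at 2.34 ± 0.492. NR1D1 and PER2 overlapped as well. After depletion NR1D1 took the rank after PER1 in HCC1806, at 30.8 ± 10.3 CPM per kb. There it overlapped both PER1 (33.4 ± 9.32) and BHLHE40 (21.8 ± 3.91). In MDA-MB-468 NR1D1 took the rank after BHLHE40, at 14.7 ± 1.6, overlapping NR1D2 at 14.1 ± 0.62. ARNTL stayed the lowest in HCC1806 at 2.61 ± 0.478 and was the lowest in MDA-MB-468 at 3.82 ± 0.124, where it overlapped PER1 at 3.84 ± 0.265. The ratio of PER1 to PER2 within a library was 4.21, 3.99 and 4.18 in HCC1806 controls and 0.564, 0.51 and 0.423 in MDA-MB-468 controls. After depletion it was 4.64, 5.45 and 5.36 in HCC1806 and 0.663, 0.695 and 0.621 in MDA-MB-468, above every control of the line in both.

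**Figure D4:**
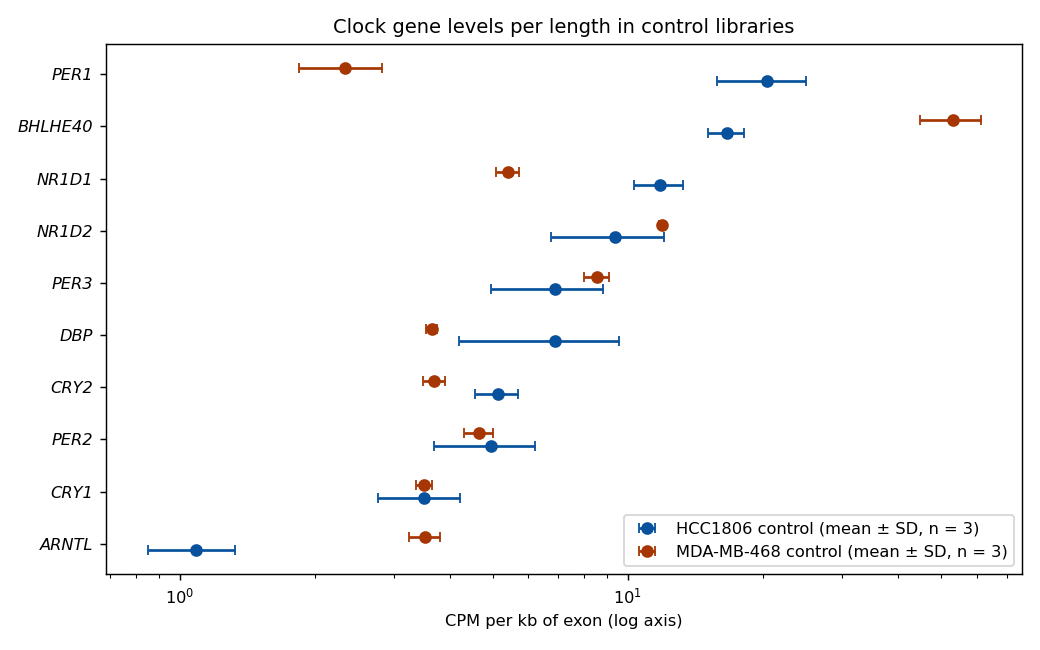
Mean level ± SD (n = 3) of each clock gene in control libraries, in CPM per kb of exon on a log axis, for HCC1806 (blue) and MDA-MB-468 (orange). PER1 is the highest of the 10 in HCC1806 (20.4) and the lowest in MDA-MB-468 (2.34), and ARNTL and BHLHE40 are higher in MDA-MB-468.

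A list of 24 further clock genes held the other activators, the PAR bZIP factors, further repressors, kinases, ubiquitin ligases, REV-ERB corepressors and outputs. This list too was set with earlier results of these data known, so its counts and p-values are a description. In HCC1806 2 of the 24 passed the threshold, where 2.49% of all genes did, and both rose: NFIL3, the repressor that competes with DBP at D-boxes, and CIART (CHRONO), a repressor of the ARNTL and CLOCK pair. NFIL3 rose from 6.42, 5.55 and 7.29 CPM to 10.9, 9.1 and 12.6 CPM (log2 fold change 0.76, SE 0.15, edgeR adjusted p-value 0.0134). CIART rose from 3.17, 3.54 and 1.95 CPM to 5.29, 6.67 and 10.5 CPM (1.39, SE 0.25, edgeR adjusted p-value 0.00729). Both calls were lost with HCC1806 fitted alone (adjusted p-values 0.165 and 0.115), and NFIL3 did not pass without HCC1806 control replicate 2 (0.056). The median of the 24 was 0.06, with 15 positive and 9 negative values, and 5 of the 24 passed without depleted replicate 1, where 1792 of all genes did. With the replicate block 3 of the 24 passed, NFIL3 and CIART among them, where 1947 of all genes did. In MDA-MB-468 0 of the 24 passed in edgeR, where 0.17% of all genes did, and the median of the 24 was 0.07. In this line 3 of the 24 had an unadjusted p-value under 0.05, where 1424 of the 27029 tested genes did. There NFIL3 measured 19.0, 19.6 and 21.0 CPM in controls and 23.8, 23.7 and 27.7 CPM after depletion (0.34, SE 0.14, edgeR adjusted p-value 0.825). CIART measured 10.3, 9.31 and 8.21 CPM and then 14.5, 12.3 and 11.9 CPM (0.48, SE 0.22, edgeR adjusted p-value 0.942). The difference between the lines did not pass for NFIL3 (-0.42, edgeR adjusted p-value 0.599) or CIART (-0.91, 0.438). CLOCK, the partner of ARNTL, changed by 0.02 (SE 0.11) in HCC1806 and -0.02 (SE 0.10) in MDA-MB-468, neither past the threshold.

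Between the control libraries of the lines 21 of the 24 passed, 12 higher and 9 lower in MDA-MB-468, where 74.2% of all genes did. RORB, a nuclear receptor that activates through ROREs, had 0 counts in the MDA-MB-468 controls and 0.375, 0.94 and 0.593 CPM in HCC1806. The HCC1806 mean of RORB was 7.64-fold above a floor of 3 counts per library in MDA-MB-468. That floor covers counting error in MDA-MB-468 only. The HCC1806 controls held only 9 to 21 counts of RORB, so that the size of its difference is imprecise. RORA, another receptor of this kind, was lower in MDA-MB-468 by a log2 difference of -1.74 (edgeR adjusted p-value 2.17e-07). ARNTL2, a paralog of ARNTL, ran opposite to it: it was lower in MDA-MB-468, with 15.4, 15.6 and 14.2 CPM against 162, 116 and 110 CPM (-3.10, edgeR adjusted p-value 9.85e-11). HLF, a PAR bZIP activator like DBP, was higher in MDA-MB-468 by 4.09 (SE 0.52, edgeR adjusted p-value 1.62e-06), and USP2, a clock-controlled ubiquitin protease, by 2.00 (4.08e-08). The HCC1806 controls held only 3 to 15 counts of HLF, near the floor, so that the size of its difference is imprecise.

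The genes most like NR1D1 over the 12 libraries were found by the root mean square difference of log2 CPM, each library taken relative to the mean of its line's controls, among 15917 genes averaging 50 counts or more. They were PPP1R15A (0.297), PLA2G4C (0.31), BEST1 (0.365), GADD45G (0.374) and SYNE1 (0.408). PPP1R15A encodes GADD34, a regulatory subunit of the phosphatase that acts on eIF2alpha. PLA2G4C encodes a phospholipase A2, BEST1 an anion channel, GADD45G a stress-inducible protein and SYNE1 the nuclear envelope protein nesprin-1. Their log2 fold changes were 1.37 and 1.20 for PPP1R15A in HCC1806 and MDA-MB-468, and 1.35 and 1.61 for BEST1. They were 1.04 and 1.03 for PLA2G4C, 0.94 and 1.51 for GADD45G, and 0.79 and 1.58 for SYNE1. The closest of the other 9 clock genes was PER1, at rank 17 (0.503). ARNTL came at rank 234 (0.731), PER2 at 276, NR1D2 at 316 and CRY1 at 529, while PER3 and DBP came at 7120 and 9082. The likeness is a description over libraries of 2 lines and uses the same depletion differences as the values above.

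**Figure D5:**
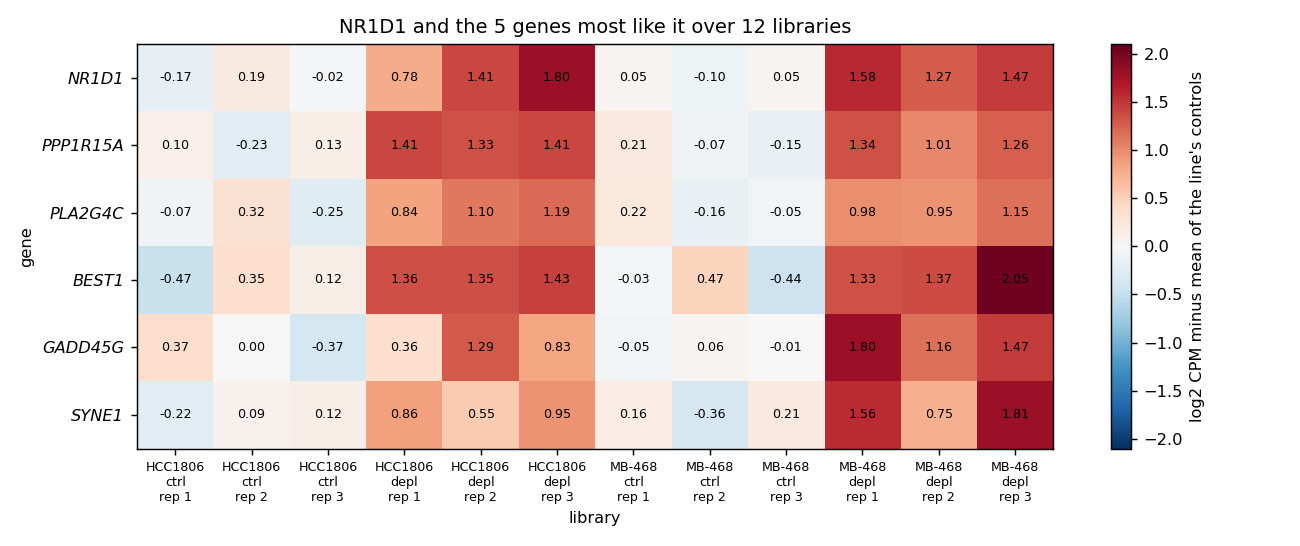
Colours and numbers give log2 CPM of each library minus the mean of its line's 3 controls, for NR1D1 and the 5 genes nearest to it. NR1D1 lies at 0.78, 1.41 and 1.80 in depleted HCC1806 and at 1.58, 1.27 and 1.47 in depleted MDA-MB-468. Each of the other 5 genes is positive in the 6 depleted libraries. GADD45G overlaps its controls in HCC1806, with 0.36 in depleted replicate 1 and 0.37 in control replicate 1.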

How the data were processed

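Total RNA of 12 libraries in 4 groups of 3 was treated with DNase, depleted of rRNA and made into libraries with a NEBNext Ultra II RNA kit, per the labels. The deposited table holds the authors' raw counts of reads per Ensembl gene. Per the submitters' processing notes, Trimmomatic 0.36, STAR 2.5.2b, featureCounts, Subread 1.5.2 and GRCh38 were used. The strand setting, the annotation release and the treatment of reads on overlapping genes are not given in the sources used here. Positions and exon lengths came from GENCODE 29 by Ensembl ID (56898 of 57500 matched). Exon length was the union of all annotated exons of a gene. The 485 genes without a name held 0.0284% of counts.

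The members and lists, the tests and the rule for named genes were set with earlier results of these data known. edgeR 4.0.16 (R 4.3.3) was run on the counts: filterByExpr on the 4 groups (27029 of 44375 genes with at least 1 count), TMM, and 1 quasi-likelihood model of all 12 libraries with 1 coefficient per group (common biological coefficient of variation 0.171). Tests were two-sided, with Benjamini-Hochberg adjustment over the whole set of tested genes and a threshold of 0.05. Contrasts were depleted against control in each line, the difference between these, and MDA-MB-468 against HCC1806 controls. SDs are over 3 libraries. Log2 CPM for likeness used a prior count of 2. The rule named all 10 members, each of the 24 further clock genes past the threshold in a depletion contrast, the 3 largest differences in each direction between control libraries, and the 5 genes most like NR1D1; CLOCK and THRA were added as references for ratios after values had been seen. A gene that the rule names between control libraries is not reported here. Alternatives were DESeq2 1.42.0, RLE size factors, library size only, no filter, a filter at a mean of 50 counts, each line alone, the replicate number as a block, and leaving out each library. Replicates of a group differed beyond counting noise (chi-square per degree of freedom 8.71 to 67.1). Same-numbered control and depleted libraries of HCC1806 deviated together (r 0.479, 0.294 and 0.152 for numbers 1 to 3), which is taken as pairing from the data and not from the labels; control 2 correlated more with depleted 3 (0.351). Figures were drawn with matplotlib 3.10.9 in Python 3.11.15.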

Additional observations from a re-analysis of the deposited data

How the results depend on the processing

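Over 19 alternatives the log2 fold change of NR1D1 ranged from 1.13 to 1.61 in HCC1806 and from 1.37 to 1.53 in MDA-MB-468, and that of ARNTL from 1.09 to 1.39 in HCC1806. The cause of the following changes was not tested. Of the 10 clock genes, 2 were past the threshold in HCC1806, 4 with library size only, 5 with no filter, 3 with DESeq2 and 2 to 5 with 1 library left out (5 without HCC1806 depleted replicate 1). In MDA-MB-468 1 was, 2 with no filter, 4 with the line alone and 1 to 2 with 1 library left out (2 without HCC1806 depleted replicate 1). For the difference between the lines 0 were, and 1 (ARNTL) with DESeq2, with library size only, with no filter and without HCC1806 depleted replicate 1 or 2 (0 to 1 with 1 library left out). Of the 24 further clock genes 2 passed in HCC1806, 0 with the line alone and 1 to 5 with 1 library left out: 5 without HCC1806 depleted replicate 1 and 1 without HCC1806 control replicate 2. In MDA-MB-468 0 passed, 1 with no filter (BHLHE41) and 3 with the line alone (TEF, BHLHE41 and CIART). CRY1 between control libraries went from 0.00 to -0.31 with a filter at a mean of 50 counts and passed there (edgeR adjusted p-value 0.0379), where the median of all genes moved by -0.31; library size only moved it by -0.25, and by 0.12 in HCC1806. Over all genes, the 672 past the threshold in HCC1806 (314 higher, 358 lower) became 1233 with DESeq2, 1351 with no filter, 74 with the line alone (65 higher, 9 lower) and 301 to 1792 with 1 library left out, and 793 with library size only (647 higher, 146 lower). The 46 of MDA-MB-468 became 108 with DESeq2, 143 with no filter, 323 with the line alone and 19 to 98. The 33 of the difference became 177 with DESeq2, 275 with no filter and 9 to 168, and the 20068 of the control comparison 13022 with the filter at 50.

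In MDA-MB-468 same-numbered control and depleted libraries deviated together with r of 0.116, 0.075 and 0.106, and every library correlated best with its own number, a hint from the data and not from the design. With the replicate block, 6 of the 10 genes were past the threshold in HCC1806, 2 in MDA-MB-468 and 1 in the difference (all genes 1947, 102 and 271). The block could not be fitted to the control comparison, nor lines alone to the comparisons that need both. ARNTL had the fewest counts of the 10 genes, 123 in the lowest library.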
